A study of Mus musculus with 2 samples.

Results

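The postsynaptic density scaffold genes studied here were Dlg4, Dlg2, Dlgap1, Dlgap2, Dlgap3, Shank1, Shank2, Shank3 and Homer1, 9 of the 21938 protein-coding genes of GENCODE M21. They were named as a list for their known function, and their DNase-seq peaks were taken within 1000 bp of any transcript start and in the gene body with 20000 bp on each side. All 9 were found in the annotation, on the plus strand. The series held 1 group, tissue of the right cerebral cortex. It came from B6CASTF1/J males that were 2 months old, with no treatment or engineered allele on the labels. These mice are the F1 of C57BL/6J and CAST/EiJ, so every autosomal gene was present as 1 copy of each parental type, while all sequences and coordinates below are those of the C57BL/6J reference, mm10 (GRCm38.p6). There were 2 libraries, replicate 1 from the animal numbered 5 and replicate 2 from the animal numbered 6. With 1 group there was no contrast and no test, and values are given for each library, with the main counts and medians beside those over all protein-coding genes or all strict peaks.

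The postsynaptic density is the protein mesh under the membrane of excitatory synapses. Membrane-associated guanylate kinases, PSD-95 from Dlg4 and PSD-93 from Dlg2, bind the tails of glutamate receptors and channels. The SAPAP proteins from the Dlgap genes link these to the Shank proteins below them, and Homer1 ties Shank to metabotropic glutamate receptors and calcium stores. Shank genes are known for several internal promoters that give shorter proteins, and Homer1 for a short form induced by neuronal activity. DNase I cuts chromatin where it is open. A peak marks a stretch of such cuts, and a footprint marks a short protected run within one.

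Replicate 1 had 91818 strict peaks, the smaller of the deposited peak sets, and 394531 footprints, and replicate 2 had 75245 strict peaks and 241645 footprints. Peak height is a deposited signal whose scaling is not stated. Its median over strict peaks was 0.932 in replicate 1 and 0.806 in replicate 2, and over all 60789 shared peaks of replicate 1 the height ratio of replicate 1 to replicate 2 had a median of 1.38. A listed base is one whose deposited false discovery rate is under 0.05. The labelled tissue was checked on promoter peaks: all 8 neuron markers carried one in replicate 1, and 7 did in replicate 2, against 0 of 4 liver markers in either. Of inhibitory neuron markers, 1 of 3 had one in each library. Of markers of other cortical cells, 3 of 5 astrocyte and 2 of 5 oligodendrocyte genes had one in each library and 0 of 5 microglia genes in either. Of 4 endothelium genes, 1 had one in replicate 1 and 0 in replicate 2. Of all coding genes, 63.4% had one in replicate 1 and 59.3% in replicate 2. Genes without a promoter peak could still have peaks in the body or flanks. Counted there, the microglia genes had a median of 3 peaks in each library, against 4 and 3 over all coding genes and 1 for the liver genes. In whole tissue, fewer cells of a type and less openness per cell cannot be told apart.

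The sequences that carry the findings below are shown first, 1 or more for each gene. They are up to 200 bases around the centre of a peak shared by both libraries, cut back where they would enter an exon, on the plus strand, 5′ to 3′. Capitals mark bases inside footprints of both libraries. The first group lies near transcript starts. It was chosen because these were the tallest promoter peaks of Homer1, Dlg2, Shank1 and Shank2, and for Shank3 the peak of the first start.
Homer1 promoter, 4 kb after the first start, chr13:93303571-93303756: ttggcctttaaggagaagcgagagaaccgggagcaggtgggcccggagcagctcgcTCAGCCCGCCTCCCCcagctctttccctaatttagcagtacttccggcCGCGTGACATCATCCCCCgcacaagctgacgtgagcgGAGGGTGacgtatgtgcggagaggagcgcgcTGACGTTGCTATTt
Dlg2 and Tmem126b promoter, chr7:90476002-90476200: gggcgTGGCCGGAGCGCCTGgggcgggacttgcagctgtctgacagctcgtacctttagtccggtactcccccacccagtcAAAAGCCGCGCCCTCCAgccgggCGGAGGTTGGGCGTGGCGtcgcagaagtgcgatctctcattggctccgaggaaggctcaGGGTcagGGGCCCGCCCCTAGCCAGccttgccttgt
Shank3, upstream of the first start, chr15:89498681-89498880: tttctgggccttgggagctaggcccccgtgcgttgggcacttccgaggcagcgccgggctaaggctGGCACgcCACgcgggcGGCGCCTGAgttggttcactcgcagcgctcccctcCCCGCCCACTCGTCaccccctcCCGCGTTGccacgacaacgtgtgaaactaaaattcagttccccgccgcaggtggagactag
Shank1, intron near an internal start, chr7:44351359-44351550: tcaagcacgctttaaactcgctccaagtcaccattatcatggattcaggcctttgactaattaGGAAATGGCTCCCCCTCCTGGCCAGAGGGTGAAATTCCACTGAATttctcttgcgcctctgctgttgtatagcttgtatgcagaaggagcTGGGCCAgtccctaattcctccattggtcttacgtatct
Shank2, internal start near the 3′ end, chr7:144417651-144417824: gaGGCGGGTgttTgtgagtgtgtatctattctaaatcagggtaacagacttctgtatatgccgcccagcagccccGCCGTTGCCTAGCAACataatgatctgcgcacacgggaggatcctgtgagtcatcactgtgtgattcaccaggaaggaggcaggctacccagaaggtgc

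The second group lies away from starts. It holds the tallest shared distal peak, by mean height over the libraries, of Dlg4, Dlgap1, Dlgap2 and Dlgap3, and a peak past the end of Dlgap1 chosen after its letters were seen.
Dlg4 intron, 4.6 kb, chr11:70021481-70021680: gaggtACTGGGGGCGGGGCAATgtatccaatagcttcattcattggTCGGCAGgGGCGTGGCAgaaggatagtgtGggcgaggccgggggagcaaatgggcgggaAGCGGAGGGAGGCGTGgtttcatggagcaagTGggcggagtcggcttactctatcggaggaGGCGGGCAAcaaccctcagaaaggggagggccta
Dlgap1 intron, 664.6 kb, chr17:70633571-70633770: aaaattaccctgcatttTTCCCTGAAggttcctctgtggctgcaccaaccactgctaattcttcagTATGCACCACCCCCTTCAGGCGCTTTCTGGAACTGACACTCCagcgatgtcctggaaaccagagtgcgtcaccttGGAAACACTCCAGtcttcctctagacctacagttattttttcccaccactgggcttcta
Dlgap1, downstream, 857.4 kb, chr17:70826341-70826540: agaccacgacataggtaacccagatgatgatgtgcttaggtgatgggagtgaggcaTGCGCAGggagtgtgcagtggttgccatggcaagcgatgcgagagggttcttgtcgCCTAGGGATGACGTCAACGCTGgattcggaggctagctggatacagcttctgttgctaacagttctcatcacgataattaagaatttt
Dlgap2 intron, 351.6 kb, chr8:14447391-14447590: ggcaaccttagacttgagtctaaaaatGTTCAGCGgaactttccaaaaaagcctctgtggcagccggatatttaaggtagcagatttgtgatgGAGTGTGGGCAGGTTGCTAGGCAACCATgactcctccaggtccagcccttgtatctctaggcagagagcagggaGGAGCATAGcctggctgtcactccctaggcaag
Dlgap3, downstream, 81 kb, chr4:127250061-127250260: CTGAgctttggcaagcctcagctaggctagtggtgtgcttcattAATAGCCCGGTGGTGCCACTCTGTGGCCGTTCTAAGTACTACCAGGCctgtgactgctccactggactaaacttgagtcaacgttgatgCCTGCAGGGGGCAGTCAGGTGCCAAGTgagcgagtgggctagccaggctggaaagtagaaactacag
The shared footprints differed in form. The Dlgap3 window carried the longest protected run of these windows, 47 bases inside footprints of both libraries, followed by 45 bases in the Shank1 intron and 42 bases in the Dlgap1 intron. In the windows of Homer1, Dlg2, Shank2 and Shank3 the runs were at most 18 bases.

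All 9 genes had a promoter peak in replicate 1, where 63.4% of coding genes had one, and 8 of 9 in replicate 2, where 59.3% did. The 8 genes with one in both libraries, every member except Dlgap3, stand against 58.7% of coding genes. The median of the tallest promoter peak was 2.76 in replicate 1 and 1.97 in replicate 2 for the members, against 3.02 and 2.17 for coding genes with a promoter peak. Members differed widely among themselves: their tallest promoter peaks spanned 1.36 to 6.61 in replicate 1 and 1.14 to 4.45 in replicate 2. Dlg2 and Homer1 were the tallest in both libraries, but the Dlg2 peak overlapped an exon of the neighbouring gene Tmem126b. The 3 Dlgap genes were the lowest in replicate 1, and in replicate 2 Dlgap1 and Dlgap2 were the lowest of the 8 genes with a peak. The order of Dlg4, Shank1, Shank2 and Shank3 between these ends was not the same in the libraries.

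**Figure D1:**
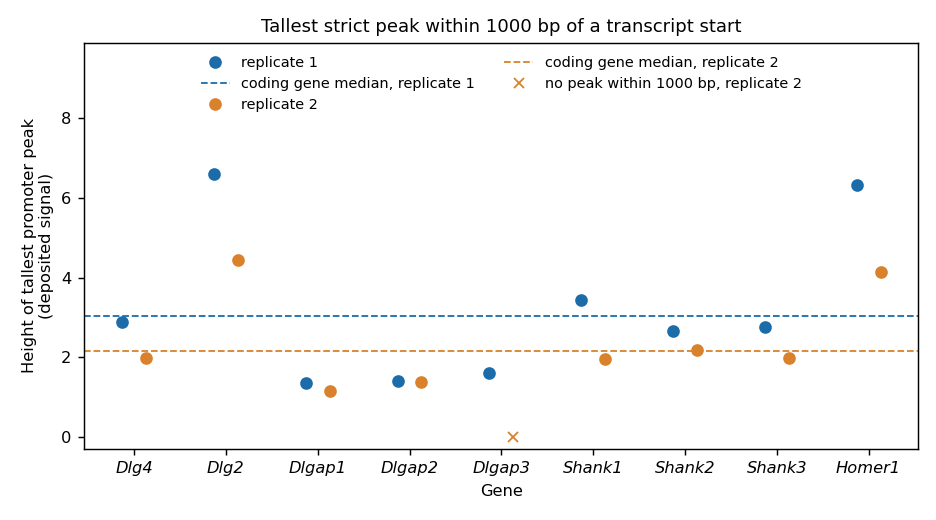
Height of the tallest strict peak within 1000 bp of a transcript start (vertical axis, deposited signal) for each gene (horizontal axis), 1 point per library, replicate 1 in blue and replicate 2 in orange. Dashed lines are the medians of coding genes with a promoter peak, 3.02 in replicate 1 and 2.17 in replicate 2. Dlg2 and Homer1 sit above both lines, the Dlgap genes below, and the cross marks Dlgap3 in replicate 2, which had no such peak. The Dlg2 peak overlaps an exon of Tmem126b.

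Most of these genes have several starts. Starts of a gene within 500 bp of one another were joined, which gave 50 start sites over the 9 genes and 52546 over the 21938 coding genes. The shares and heights per gene above count a peak at any start. They were not matched for the number of start sites. Of the 50 sites, 26 had a peak in replicate 1, against 36.4% of the start sites of all coding genes. In replicate 2, 24 had one, against 32.6%. In both libraries 21 had one, against 31.8%, and 21 had none in either. Which start was open differed from gene to gene, and in several genes the tallest peak was not at the first annotated start.

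Dlg4 encodes PSD-95, the main scaffold of the postsynaptic density (chr11:70016942-70047522, 7 start sites). Its tallest promoter peak covered the start at 12.5 kb, from which 6 coding transcripts begin, with a height of 2.88 in replicate 1 and 1.97 in replicate 2. Both heights lay in the upper part of their library, at percentiles 89.2 and 88.0 of strict peaks. The first 2 start sites were much weaker. Neither had a strict peak in replicate 1, and in replicate 2 the second, at 1.5 kb, had 1 of height 1.06. The wider peak set held a region of height 1.69 in replicate 1 and 1.06 in replicate 2 there, so the difference at these sites is one of passing the stricter threshold. The coding starts at 9.9 kb and 10.8 kb lay near the same peak, of height 0.907 in replicate 1 and 0.791 in replicate 2. The starts at 7 kb and 27.3 kb had no listed base in either library.

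The highest peak inside Dlg4 was not at a start. It lay in an intron 4.6 kb from the first start (chr11:70021401-70021760 in replicate 1), with a height of 4.56 in replicate 1 and 3.06 in replicate 2, and held 9 and 10 footprints. Its printed window has the word GGGCGG (GC box) at bases 11, 98 and 138 counted from its 5′ end, the first wholly inside footprints of both libraries, and a CCAAT box on each strand outside them. Dlg4 sits among close neighbours. The region held 10 peaks in replicate 1 and 9 in replicate 2, of which 4 and 3 lay near starts of other genes. One of them was a peak 1.5 kb upstream at a start of Acadvl, with heights of 2.85 and 1.95. The density was 14.2 peaks per 100 kb in replicate 1 and 12.8 in replicate 2, above that of 88.9% and 93.1% of coding genes.

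Dlg2 encodes PSD-93, a paralog of PSD-95, and is by far the longest of the 9 genes (chr7:90476672-92449247, 1972.6 kb, 8 start sites). Its first start had the tallest promoter peak of all members, 6.61 in replicate 1 and 4.45 in replicate 2, at percentiles 99.0 and 98.8 of strict peaks. The peak lay 412 bp upstream in replicate 1 and 432 bp upstream in replicate 2. It overlapped an exon of Tmem126b, which encodes a mitochondrial complex I assembly protein. It was also within 1000 bp of a start of that gene, so by distance it belongs to both genes. The tallest peak that covered a Dlg2 start of this site was lower, 1.28 in replicate 1 and 0.998 in replicate 2. In replicate 1 another peak, 32 bp from such a start, had 1.32. The printed window holds GGGCGG 3 times, at bases 21 and 102 and, on the other strand, at 175, the last wholly inside shared footprints.

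Peaks at internal starts of Dlg2 were lower than the one that overlapped Tmem126b. The tallest of them, at a noncoding start 1195.8 kb in, had 1.47 in replicate 1 and 1.27 in replicate 2. Both heights were above those of the peaks that covered the first start. The noncoding start at 1758.3 kb had 1.202 in replicate 1 and 0.829 in replicate 2. The start at 614 kb, used by 2 coding transcripts, had 4 peaks in each library, the tallest 1.29 in replicate 1 and 0.952 in replicate 2. The coding start at 1234.7 kb was covered by a peak of 0.870 in replicate 1 and 0.829 in replicate 2, and the coding start at 1585.7 kb had no listed base in either library. The remaining 2 sites, both noncoding, had no strict peak in either. Along the whole gene and flanks there were 57 peaks in replicate 1 and 65 in replicate 2, the 1 member with more peaks in replicate 2. Introns held 40 of them in replicate 1 and 47 in replicate 2. Per length this is 2.83 and 3.23 peaks per 100 kb, against medians of 4.04 and 3.40 for the 2492 coding genes of 100 kb or more. Dlg2 was below that median in both libraries, but only slightly in replicate 2. The tallest shared distal peak lay 1458.7 kb from the first start (chr7:91935301-91935520 in replicate 1), with 2.72 in replicate 1 and 1.97 in replicate 2.

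**Figure D2:**
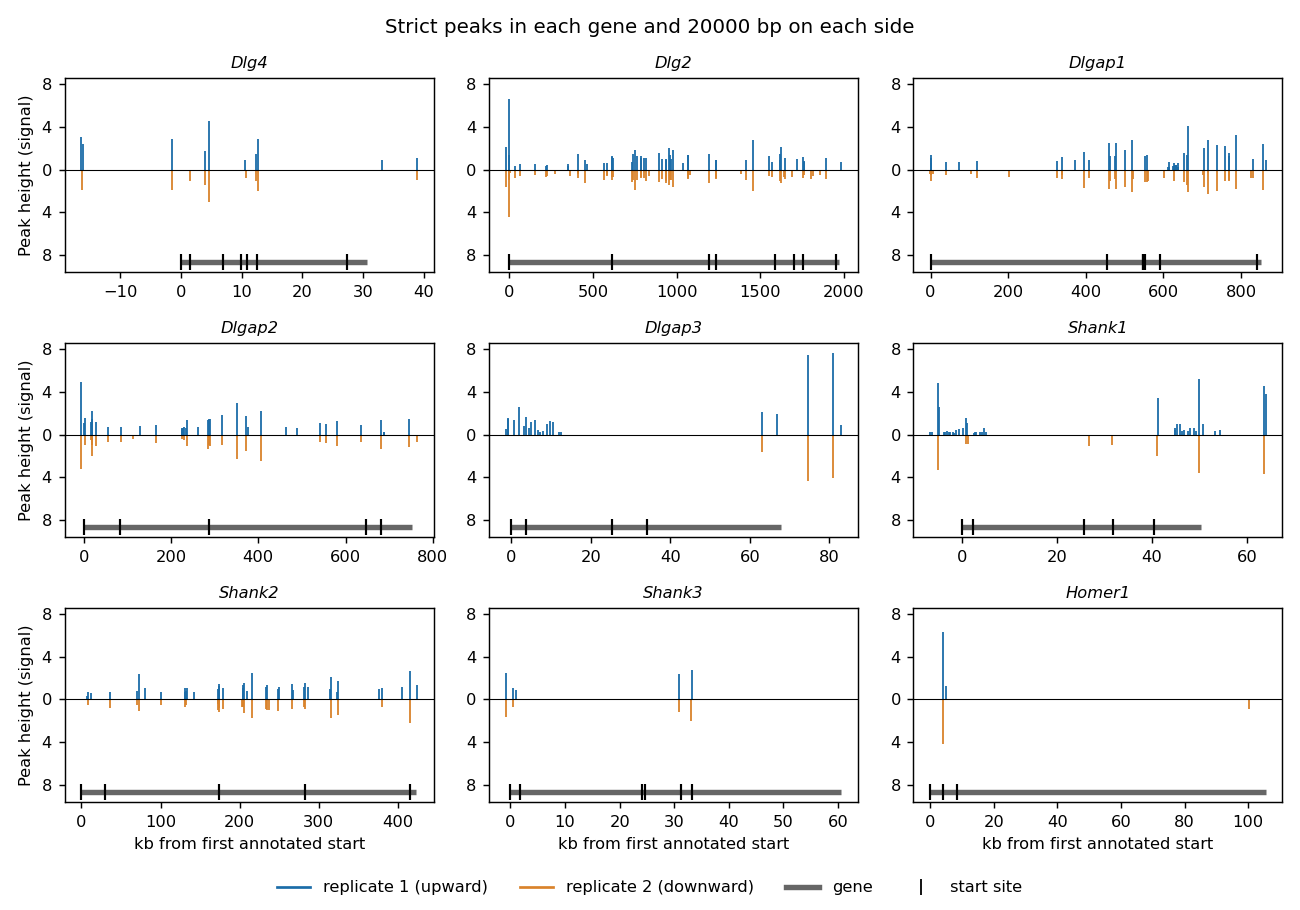
Strict peaks in each gene and 20000 bp on each side: position in kb from the first annotated start (horizontal axis) and height as deposited signal (vertical axis), replicate 1 upward in blue and replicate 2 downward in orange. Grey bars are the genes and black ticks their start sites. In Homer1 and Shank3 the tall peaks are at starts, the long genes Dlg2, Dlgap1, Dlgap2 and Shank2 carry peaks along their introns, and Shank1 and Dlgap3 have runs of closely spaced peaks in replicate 1.

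The Dlgap genes encode SAPAP proteins, which bind the guanylate kinase domain of PSD-95 and the PDZ domain of Shank. Dlgap1 (chr17:69969073-70821413, 7 start sites) had the lowest tallest promoter peak of the members that had one in the library. It was 1.36 in replicate 1 at the first start and 1.14 in replicate 2 at 552.6 kb. These are the 2 open starts of the gene. At the first, 3 coding transcripts begin, and the peaks were 1.36 in replicate 1 and 1.02 in replicate 2. At 552.6 kb, where 4 begin, they were 1.27 in replicate 1 and 1.14 in replicate 2, so the libraries disagree on which is taller and the 2 sites lie close together in height. The other 5 start sites had no strict peak in either library.

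Away from starts Dlgap1 was better marked. By mean height over the libraries, its tallest shared distal peak was intronic, 664.6 kb from the first start (chr17:70633581-70633760 in replicate 1), with 4.02 in replicate 1 and 2.07 in replicate 2, above every promoter peak of the gene. In replicate 2 the peaks at 714.9 kb, with 2.24, and 520.1 kb, with 2.13, were taller. Another shared peak stood 857.4 kb from the first start and past the gene's end, with 2.38 in replicate 1 and 1.87 in replicate 2. Its printed window holds TGACGTCA (the cyclic AMP response element) at bases 121 to 128, all 8 of them inside footprints of both libraries. That word was in 3 of 264 member peaks of replicate 1 and 2 of 188 of replicate 2, 1.14% and 1.06%, against 0.906% and 1.00% of all strict peaks.

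Dlgap2 (chr8:14095865-14847680, 5 start sites) also had low promoters, and its clearest ones belonged to noncoding transcripts. The start at 285.9 kb had a peak of 1.41 in replicate 1 and 1.31 in replicate 2, and that at 681.9 kb 1.37 in both libraries. The first start, from which 2 coding transcripts begin, had a peak of 1.06 in replicate 1, 954 bp downstream, and none in replicate 2. The next coding start, at 83.8 kb, had no listed base in either library. A peak of 4.89 in replicate 1 and 3.20 in replicate 2 stood 5.4 kb upstream, at a start of Erich1. The tallest shared distal peak by mean height, in an intron at 351.6 kb (chr8:14447381-14447600), had 2.94 in replicate 1 and 2.33 in replicate 2. In replicate 2 the peak at 406.4 kb, with 2.46, was taller. A match to the RFX motif, the inverted repeat bound by regulatory factor X proteins, fills bases 106 to 118 of the printed 351.6 kb window, all inside shared footprints.

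In Dlgap3 (chr4:127169204-127237022, 4 start sites) the libraries disagreed. Replicate 1 had 3 peaks near the first start, the tallest 1.496, and 3 near the start at 3.7 kb, the tallest 1.61. Replicate 2 had none at either, in the strict or in the wider set. Nor did replicate 2 have a single listed base within 1000 bp of any of the 4 sites, while replicate 1 had 2001 at the first and 1982 at the second. The last 2 sites had no listed base in either library. At the far end of the region 3 peaks were shared. The tallest shared distal peak of any member was one of them, 81 kb from the first start in intergenic DNA (chr4:127250081-127250240 in replicate 1), with 7.59 in replicate 1 and 4.05 in replicate 2. The footprint in the 81 kb peak was 51 bases wide in replicate 1 and 47 in replicate 2.

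The Shank genes encode the master scaffolds that hold SAPAP and Homer. With the 1000 bp window, the tallest promoter peak of all 3 lay at or near an internal start, which was coding only in Shank3. Shank3 (chr15:89499623-89560261, 6 start sites) had the smallest gap to its first start. A peak covered the coding start at 33.3 kb, with 2.76 in replicate 1 and 1.97 in replicate 2. A noncoding start at 31.2 kb had 2.36 in replicate 1 and 1.19 in replicate 2. At the first start, from which 2 coding transcripts begin, the tallest peak was 2.46 in replicate 1, 703 bp upstream, and 1.59 in replicate 2, 643 bp upstream. The printed window there holds GGGCGG at base 79 and, on the other strand, at 119, and the match at 119 is wholly inside shared footprints. The noncoding start at 1.7 kb had 0.895 in replicate 1 and no strict peak in replicate 2. The sites at 24.1 kb and 24.7 kb had no listed base in either library. All 5 peaks of replicate 1 and all 4 of replicate 2 were at starts of Shank3 itself, with none in the rest of the gene or in its flanks.

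Shank2 (chr7:144001928-144424494, 5 start sites) had its tallest promoter peak at a noncoding start 415.9 kb in, with 2.65 in replicate 1 and 2.19 in replicate 2. Its printed window carries an RFX match at bases 79 to 91, all in shared footprints. Over all members the RFX motif was in 3 peaks of each library, 1.14% in replicate 1 and 1.60% in replicate 2, against 0.380% and 0.460% of all strict peaks. Of the coding starts, the one at 173.6 kb had 1.46 in replicate 1 and 1.16 in replicate 2, and that at 282.5 kb, where 2 coding transcripts begin, 1.53 in replicate 1 and 0.860 in replicate 2. The coding starts at 0 kb and 29.3 kb had no listed base in either library. The tallest shared distal peak by mean height, in an intron at 215.5 kb (chr7:144217321-144217480), had 2.48 in replicate 1 and 1.73 in replicate 2. In replicate 2 the intron peak at 315 kb, with 1.74, was about as tall. Shank2 introns held 31 of 41 peaks in replicate 1 and 20 of 30 in replicate 2. The density was 8.86 peaks per 100 kb in replicate 1 and 6.49 in replicate 2.

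Shank1 (chr7:44310253-44360572, 5 start sites) had its tallest promoter peak 579 bp after a noncoding start at 40.5 kb, with 3.44 in replicate 1 and 1.96 in replicate 2. The peak of the first start, from which a coding transcript begins, was 1.58 in replicate 1 and 0.914 in replicate 2. The coding start at 2.4 kb had 0.232 in replicate 1 and no strict peak in replicate 2. The noncoding starts at 25.8 kb and 31.9 kb had no strict peak in replicate 1, and peaks of 1.04 and 0.968 in replicate 2. With a window of 500 bp in place of 1000 bp the peak near the start at 40.5 kb drops out. The tallest is then 0.645 in replicate 1, 48 bp from the first start. In replicate 2 it is 0.968, near the start at 31.9 kb. The tallest distal peak, in an exon shared by Shank1 and 1700008O03Rik (chr7:44360041-44360340 in replicate 1), had 5.14 in replicate 1 and 3.59 in replicate 2.

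Homer1 (chr13:93299635-93405129, 3 start sites) had the simplest layout. Its promoter peak covered the start at 4.1 kb, where 10 of its 12 annotated transcripts begin, with 6.32 in replicate 1 and 4.13 in replicate 2, at percentiles 98.8 and 98.3 of strict peaks. The start at 8.4 kb had no listed base in either library. Besides this peak there was 1 more in each library: 1.27 next to it in replicate 1, and 0.898 in an intron at 100.2 kb in replicate 2. Neither had a strict counterpart in the other library, although each overlapped a region of the other library's wider set. With 1.37 peaks per 100 kb in both libraries, Homer1 was the sparsest member, above 17.7% of coding genes in replicate 1 and 19.2% in replicate 2. The printed promoter window holds the word TGACG at bases 131, 147 and 173, and the third match is wholly inside shared footprints. Within this window the capitals cover 53 of 186 bases.

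**Figure D3:**
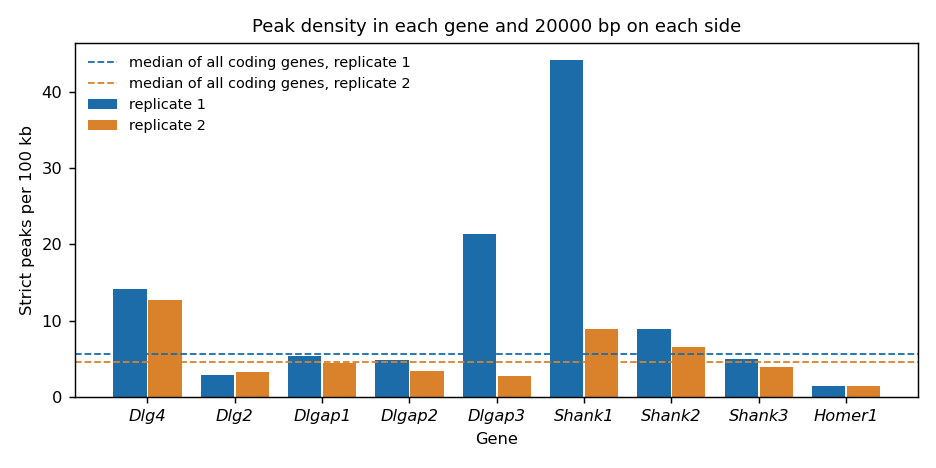
Strict peaks per 100 kb in each gene and 20000 bp on each side (vertical axis) for each gene (horizontal axis), bars in blue for replicate 1 and orange for replicate 2. Dashed lines are medians of all coding genes, 5.62 in replicate 1 and 4.56 in replicate 2. The libraries differ most in Shank1, with 44.3 in replicate 1 and 8.86 in replicate 2, and in Dlgap3, with 21.3 in replicate 1 and 2.78 in replicate 2.

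Over the 9 genes and flanks, 4.67 Mb in all, replicate 1 had 264 strict peaks and replicate 2 had 188. Member medians were 5.38 and 3.97 peaks per 100 kb, against 5.62 and 4.56 over all coding genes. Introns held 162 peaks in replicate 1 and 125 in replicate 2, own starts 49 and 42, starts of other genes 25 and 13, and exons 15 and 5. A footprint lay in 84.1% of member peaks of replicate 1 and 83.5% of replicate 2, against 86.0% and 83.3% of all strict peaks. In this the members were close to the rest of the genome.

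Agreement between the libraries was lower in 1 direction. Of member peaks, 55.3% of those in replicate 1 and 78.2% of those in replicate 2 overlapped a peak of the other, against 66.2% and 80.8% of all strict peaks. In replicate 1, Dlgap3 shared 3 of 23 peaks and Shank1 6 of 40, the lowest shares of the members. Homer1 shared 1 of 2. Dlgap1 shared 60.4%, Dlgap2 60.5% and Shank2 61.0%. Without Shank1 and Dlgap3 the shares were 68.2% in replicate 1 and 78.5% in replicate 2. Many of the unshared peaks of replicate 1 in Shank1, Dlgap3 and Dlgap1 lay in stretches, whose limits were set after the peaks were seen. In Dlgap3 the stretch from -2 to 13 kb around the first start held 18 peaks in replicate 1 and 0 in replicate 2, and 91.6% of its bases were listed in replicate 1 against 1.16% in replicate 2. In Shank1 the stretch from -7 to 6 kb held 23 peaks in replicate 1 and 3 in replicate 2, with 90.8% and 16.6% of bases listed. A second Shank1 stretch, from 44 to 55 kb, held 14 peaks and 1 peak, with 73.9% and 8.15% listed. In Dlgap1 the stretch from 610 to 640 kb held 16 peaks in replicate 1 and 1 in replicate 2, with 25.7% and 0.98% listed. Outside the 4 stretches, 141 of 193 peaks of replicate 1 had a counterpart, 73.1%, and 143 of 183 of replicate 2, 78.1%.

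**Figure D4:**
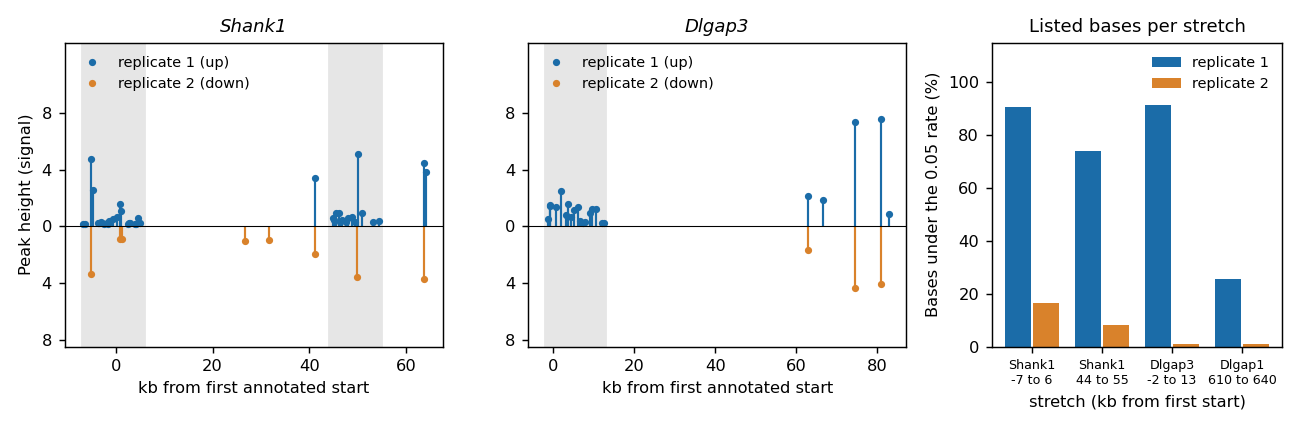
Left and centre, strict peaks of Shank1 and Dlgap3 by kb from the first annotated start (horizontal axis) and height (vertical axis, deposited signal), replicate 1 upward in blue and replicate 2 downward in orange, with the stretches shaded. Right, percent of bases under the 0.05 false discovery rate in each stretch (vertical axis) by library. Replicate 1 lists 90.8%, 73.9%, 91.6% and 25.7% of bases, and replicate 2 lists 16.6%, 8.15%, 1.16% and 0.98%.

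Height and false discovery rate parted in these stretches. Of the peaks of replicate 1 with a height from 1 to under 2, the 10 inside the stretches had a median lowest rate of 3.08e-41, and the 81 elsewhere in the member regions 2.39e-08. In Dlgap3 the promoter peak of 1.61 reached a rate of 3.75e-46, while the 81 kb peak of 7.59 reached 5.23e-27. In Shank1 the shared peak 5.1 kb upstream, in an exon of Clec11a, reached 1.59e-245 at a height of 4.79 in replicate 1, and 4.71e-20 at 3.34 in replicate 2. Outside the stretches, the Shank1 peak near the start at 40.5 kb reached 2.78e-08 at 3.44 in replicate 1 and 1.07e-08 at 1.96 in replicate 2. Heights in the stretches were not alike. In replicate 1 their medians were 0.238 and 0.507 in the Shank1 stretches, 0.307 in the Dlgap1 stretch and 1.04 in the Dlgap3 stretch, against 0.932 for all strict peaks. Whether these stretches differ between the animals or between the libraries as prepared cannot be told apart with 1 library of each animal.

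The pattern was rare but not limited to Shank1 and Dlgap3. Of all coding genes, 35, or 0.16%, had 20 or more peaks in replicate 1 and at most 1 in 5 of that number in replicate 2, and 0 had the reverse. Some of these are neighbours that count the same peaks, such as Clec11a beside Shank1. Among 24 other scaffolds and adaptors of the postsynaptic density there was 1, Synpo, which encodes the spine apparatus protein synaptopodin, with 32 peaks in replicate 1 and 6 in replicate 2. Among 14 scaffolds of the presynaptic active zone there were 0.

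Of the other postsynaptic scaffolds and adaptors, 24 of 24 had a promoter peak in replicate 1 and 21 in replicate 2, with medians of 2.35 and 1.80. The tallest were Pick1, which binds AMPA receptor tails, with 6.71 in replicate 1 and 4.35 in replicate 2, and Cript, which binds a PDZ domain of PSD-95, with 6.62 and 3.82, a peak also near a start of Pigf. Baiap2, an actin regulator of spines, had 4.98 in replicate 1 and 3.20 in replicate 2. Cnksr2, a scaffold of Ras signalling, had 0.845 in replicate 1 and no peak in replicate 2, and Iqsec2, an exchange factor for Arf proteins, had 0.513 in replicate 1 and no peak in replicate 2. All 14 presynaptic scaffolds had a promoter peak in both libraries, with medians of 2.17 and 1.71, led by Ppfia3 at 6.08 in replicate 1 and 3.87 in replicate 2. Apba1 followed with 4.22 in replicate 1 and 2.65 in replicate 2, and Pclo with 3.74 in replicate 1 and 2.44 in replicate 2. Both lists, like the 9 members, had medians below those of coding genes with a promoter peak, 3.02 and 2.17.

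CpG content was highest in the few peaks of Shank3 and Homer1. The median peak of Shank3 held 7.73 CpG per 100 bp in replicate 1 and 7.24 in replicate 2, and that of Homer1, with 2 peaks in each library, 9.39 and 5.38. Peaks of Dlg2 held 1.19 and 1.41, those of Dlgap1 1.73 and 1.94 and those of Dlgap2 2.22 and 2.08. The medians of all strict peaks were 2.17 and 2.00. Shank3 had all its peaks at its own starts, and Homer1 2 of 2 in replicate 1 and 1 of 2 in replicate 2, while the long genes carried most of theirs in introns. Words were searched on both strands in 200 bp around each peak centre, and only some of the 18 searched are given. The GC box, GGGCGG, was in 12.9% of member peaks of replicate 1 and 12.2% of replicate 2, against 18.8% and 18.6% of all strict peaks. The AP-1 word TGANTCA was in 15.9% and 18.6%, against 10.8% and 12.1%, and the E-box CAGCTG in 20.1% and 22.3%, against 16.8% and 15.9%. Other words lay closer to all strict peaks. The CCAAT box was in 21.6% and 22.3%, against 22.6% and 23.9%, and TGACG in 14.0% and 11.7%, against 13.2% and 13.4%. These are shares of peaks that share genes and libraries, and a match is a word, not a bound site. Introns held 61.4% of member peaks in replicate 1 and 66.5% in replicate 2. The comparison with all strict peaks was not matched for such classes, and their part in these differences was not tested.

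Wide footprints, long protected runs, were found in 6 of the 9 genes. A footprint of 30 bases or more in both libraries lay in 11 of 146 shared member peaks, 7.53%, against 9.86% of all shared peaks. The Dlgap3 footprint at 81 kb, of 51 bases, was the widest of these in replicate 1. Shank1 had one of 47 bases in replicate 1 and 49 in replicate 2 in the 41.2 kb intron peak, the widest in replicate 2, and Shank3 one of 45 and 42 bases in the peak at 30.9 kb. Dlgap1 had 4, among them the 45 and 42 bases of its tallest distal peak and a footprint of 35 and 30 bases at 714.9 kb that holds the CTCF core motif. Within shared member peaks, 42.2% of the 535 footprints of replicate 1 and 61.6% of the 378 of replicate 2 overlapped one of the other library. Footprints are much shorter than peaks, so these shares cannot be set against those of peaks. The same shares over all shared peaks were not computed.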

How the data were processed

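DNase-seq files of both libraries were used as deposited. Per the deposited descriptions, each was derived from that library's own alignments to mm10, so replicates were not pooled. Aligner, peak caller and footprint caller were not named in the sources used here. Peak height is a signal deposited by the authors, with no stated scaling. For each base with a false discovery rate under 0.05, the authors deposited that rate, a q-value. Deposited footprints carry a constant of 0.01, and only their positions were used. No sequencing depth accompanies the peaks used here, which leaves the precision of any 1 peak unknown. Both libraries carry 1 donor record on the labels, and only the animal numbers set them apart.

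The strict peak set was used, with overlap of at least 1 bp. Genes and starts came from GENCODE M21, sequences from GRCm38.p6, read with pysam 0.24.0 in Python 3.11.15. A promoter peak lay within 1000 bp of a transcript start, measured from the nearest edge of the peak. Distal peaks lay over 1000 bp from every start of any gene. For 18 motifs, 200 bp around each peak centre were searched on both strands. On simulated data, 500 of 500 planted overlaps were recovered. The members and lists were chosen with earlier results of these data known, and no test or p-value was computed. By the rule for names, the text gives all members, the tallest strict peak near each start site that has one, the tallest shared distal peak by mean height, and the 3 tallest genes of each related list by mean height. Stretches and genes without a promoter peak in replicate 2 were named after their values were seen. Some listed or neighbouring genes are not reported here.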

Additional observations from a re-analysis of the deposited data

How the results depend on the processing

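Of the 41 alternatives for the main values, 38 stayed within 1.5 times or within the spread between the libraries, and 3 moved. The mean number of strict peaks in and around members, 226, became 385 with the wider peak set and 130 with the higher 50% of peaks by height. The mean number of footprints inside member peaks, 574, became 911 when all footprints of the regions were counted. Among the 38, start sites with a peak in both libraries, 21, became 14 with coding transcripts only, at the limit of 1.5 times. They became 29 with the wider peak set. The 38 also include a median height over the library median, 2.77, set against a raw height of 2.42, which are unlike scales. With 1 library left out, members with a promoter peak numbered 8 to 9, start sites with a peak 24 to 26, peaks 188 to 264, footprints 416 to 732, and the median tallest promoter height was 1.97 to 2.76. Both of these heights were judged against a spread made from those same heights, so their place among the 38 says little. A share of peaks with a counterpart has no value without a library. The number of members with a promoter peak in both libraries was 8 under every other alternative except that of coding transcripts only, which gave 7, Dlgap2 having none in replicate 2. For single genes, 15 of 18 alternatives stayed within the spread. Dlgap3 had no such spread, with a promoter peak in replicate 1 alone, and only an unchanged value counted there as staying. With a promoter window of 2500 bp the mean tallest peak of Dlg4 became 3.81, and that of Dlgap3, in replicate 1 alone, 2.53. With 500 bp that of Shank1 became 0.806. Of alternatives chosen after seeing the data, peaks of height 0.5 or more numbered 191.5 on average, with 75.5% shared. Those of the members other than Shank1 and Dlgap3 numbered 189, with 73.3% shared, against 66.7% for all. In replicate 1 the share rose from 55.3% to 67.5% and 68.2% under these alternatives. In replicate 2 it went from 78.2% to 83.6% and 78.5%. The libraries lie far apart in this share, so staying within their spread says little about its stability. With 1 group and no contrast, no test could be run. No paired analysis was possible because the 2 libraries form 1 group.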
